A study of Mus musculus with 3 samples.

Results

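The genes described here carry out the uptake and mitochondrial oxidation of fatty acids, or control them, in the hearts of mice given esmolol, which blocks cardiac beta-1 adrenergic receptors and is cleared within minutes. They are a list of 35 genes put together by function, with earlier results of these data known. Of these, 33 are named on the array, among 19532 named genes in all, and all 33 had a value in each of the 3 contrasts, in which 17814, 17733 and 17339 genes were measured. Acsl1, an acyl-CoA synthetase, and Ucp2, a mitochondrial carrier of the uncoupling protein family, had no probe named for them alone and were not analysed here. C57BL/6 mice formed 6 groups of 8 animals, and RNA came from 30 mg of heart. The groups were untreated mice without sepsis, mice without sepsis on esmolol, mice made septic by intraperitoneal lipopolysaccharide (LPS, a component of bacterial cell walls) with and without esmolol, and mice made septic by cecal ligature and perforation (CLP, which spills gut bacteria into the abdomen) with and without esmolol. Esmolol ran at 20 mg/kg/h into a central venous catheter placed in the right jugular vein. The dose of LPS, the age of the animals, the chamber of the heart that was sampled, the time of sampling and whether untreated mice had a catheter are not stated in the labels.

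The working heart draws most of its energy from fatty acids. Lipoprotein lipase frees them in the capillaries, membrane and cytosolic carrier proteins bring them into the myocyte, and the carnitine shuttle passes them into the mitochondrion, where the beta-oxidation cycle shortens them and hands electrons to the respiratory chain. Nuclear receptors of the PPAR family and their coactivators set the expression of many of these genes, and severe sepsis is known for a decline of fatty acid oxidation in the heart.

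Each contrast is 1 deposited ratio per probe, merged by the authors from 4 replicates with dye swaps, so no value below has a replicate error and nothing was tested. Whether the merged replicates were separate animals is not stated. "Higher" and "lower" describe that merged ratio of esmolol to untreated hearts, and the ratios were read as log2, a base that no source used here states. Esmolol hearts come last in the title of the CLP contrast and first in the titles of the others. The CLP sign was turned accordingly, while the series' design text names treated against untreated hearts with no exception for CLP. The CLP direction is therefore not settled, and each CLP value changes sign if the deposited column does not follow its title. The error within the table is the SD between probes for 1 gene, pooled over genes. It was 0.11 on the log2 scale without sepsis, 0.24 with LPS and 0.10 with CLP, and covers neither animals nor hybridizations. In each column 1 exact value recurs at many probes (0.0083 at 359, -0.043 at 526 and, after the turn, -0.0196 at 538), and a gene whose probes all sit on it has no ratio that can be read. This was so for Cd36, Acadm, Hadhb and Ech1 in all 3 contrasts, and for Lpl (non-septic), Fabp3 (non-septic and LPS) and Pdk4 (CLP) in some.

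In CLP hearts, nearly the whole list lay on the lower side with esmolol, if the title gives the direction. The lowest were Acot1, a cytosolic acyl-CoA thioesterase (log2 ratio -0.52, 1.44-fold lower), Mlycd, the malonyl-CoA decarboxylase that relieves inhibition of the carnitine shuttle (-0.42), and Ppargc1a, the coactivator PGC-1 alpha (-0.30). Of the 33 genes, 29 (87.9%) were below 0, against 52.1% of all genes measured, and the list median was -0.06 where that of all genes was -0.005. Without the recurring value, 24 of 28 genes (85.7%) were below 0, against 51.4% of all genes, with a median of -0.10. By more than the pooled SD between probes, 14 genes (42.4%) were lower and 1 (3.03%) was higher, and of all genes 14.6% were lower and 15.7% higher by as much. The shifts were small in size. At 1.2-fold (0.26 on the log2 scale) 3 genes (9.09%) were lower and 0 higher, where 2.06% and 3.92% of all genes were. None of the 33 reached 1.5-fold, which 0.952% of all genes did in either direction.

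In LPS hearts, a subset of 8 genes was at least 1.2-fold higher with esmolol and 0 were lower by as much. They were the transporter gene Slc27a1 (0.47), Hadha of the trifunctional protein (0.44), the lipase inhibitor Angptl4 (0.40), both carnitine palmitoyltransferase 1 genes, Cpt1b (0.38) and Cpt1a (0.38), the dehydrogenase gene Etfdh (0.29), the thioesterase gene Acot2 (0.28) and Cpt2 (0.28). This was 24.2% of the list, and 15.4% of all genes were higher and 14.4% lower by 1.2-fold. The same 8 genes were those above the pooled SD between probes, which 17.6% of all genes exceeded upwards and 16.6% downwards. Over the whole list 16 of 33 genes (48.5%) were below 0 against 50% of all genes, with a median of 0.01. The lowest was Acads (-0.21). Without the recurring value 11 of 28 (39.3%) were below 0, against 49.3% of all genes, and the median was 0.07. None reached 1.5-fold, against 4.32% of all genes.

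In hearts without sepsis, Pdk4 and Acot1 were the genes at least 1.2-fold higher with esmolol and Ppargc1b the gene lower by as much. Pdk4, the kinase that shuts off pyruvate dehydrogenase and so spares glucose, lay at 0.38 (1.30-fold), Acot1 at 0.27 and Ppargc1b, the coactivator PGC-1 beta, at -0.31. The 2 higher genes, with 1 probe each, were 6.06% of the list and the 1 lower gene 3.03%, against 2.33% and 2.91% of all genes. The lower share was thus near that of all genes. Past 1.5-fold were 0.46% of all genes and no gene of the list. By more than the pooled SD between probes, 7 genes (21.2%) were higher and 1 (3.03%) lower, against 13.5% and 15% of all genes. Below 0 were 9 of 33 genes (27.3%), against 49.5% of all genes, and the median was 0.01. Without the recurring value 9 of 27 (33.3%) were below 0, against 49.9% of all genes, with a median of 0.03.

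**Figure D1:**
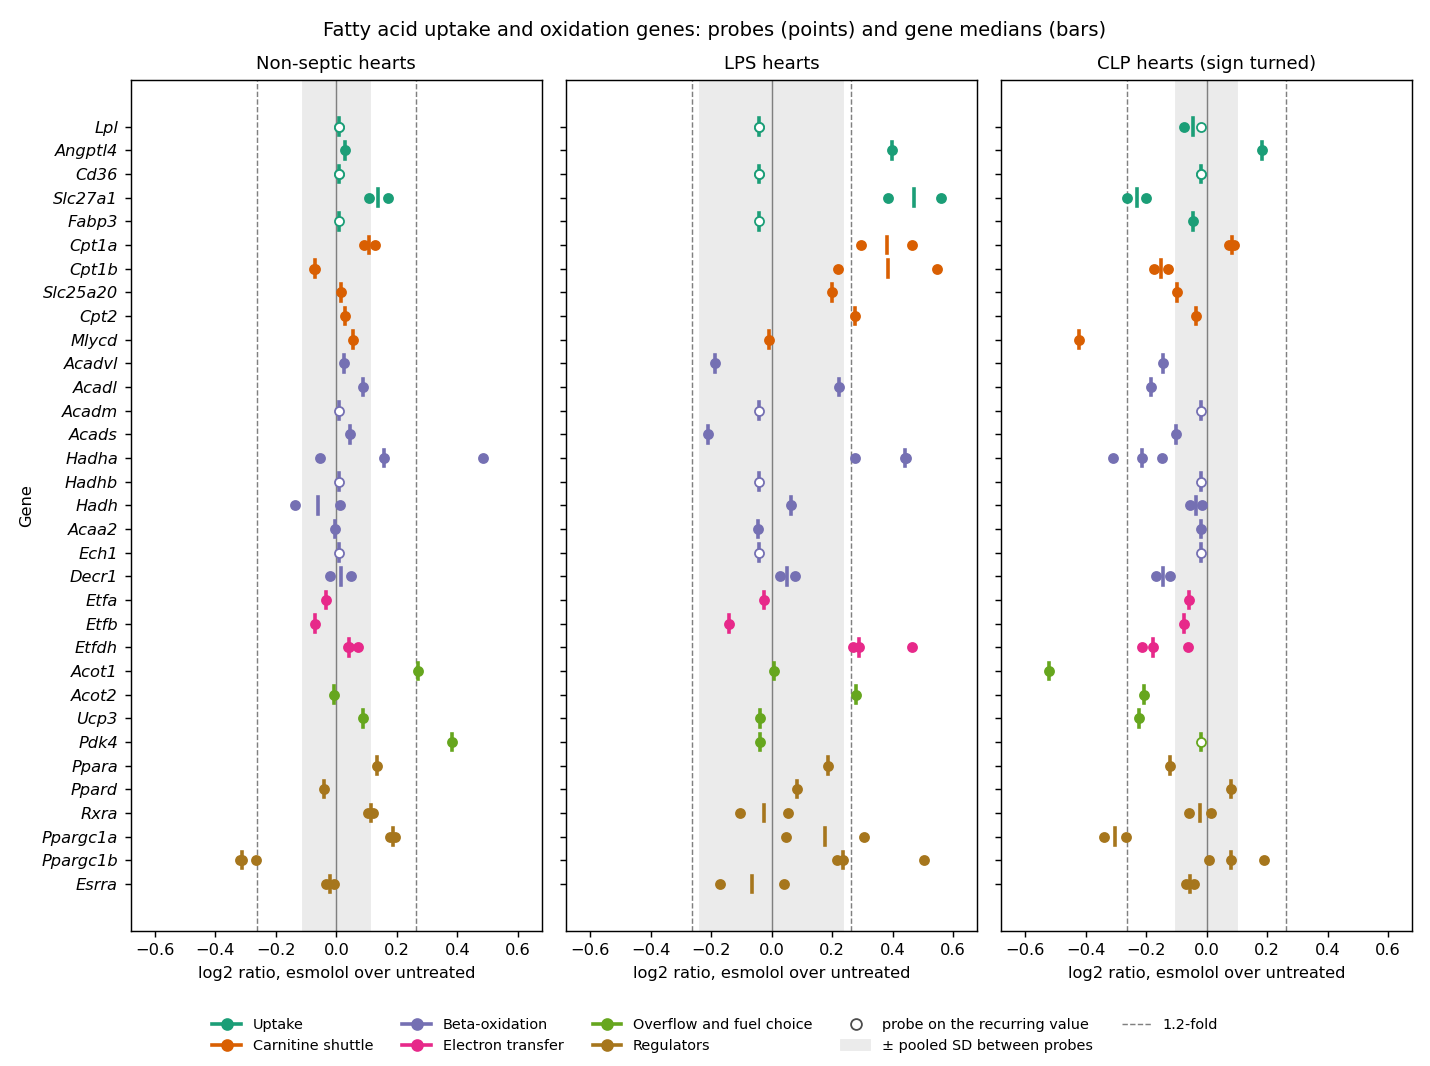
Log2 ratio of esmolol to untreated hearts (x axis) for the 33 measured fatty acid genes (y axis, coloured by role) in each contrast; points are probes, open where a probe sits on the recurring value, bars are gene medians, the grey band is the pooled SD between probes and dashed lines mark 1.2-fold. In CLP hearts 29 of 33 medians lie left of 0, with Acot1 (-0.52) lowest, and in LPS hearts 8 lie right of the 1.2-fold line.

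**Figure D2:**
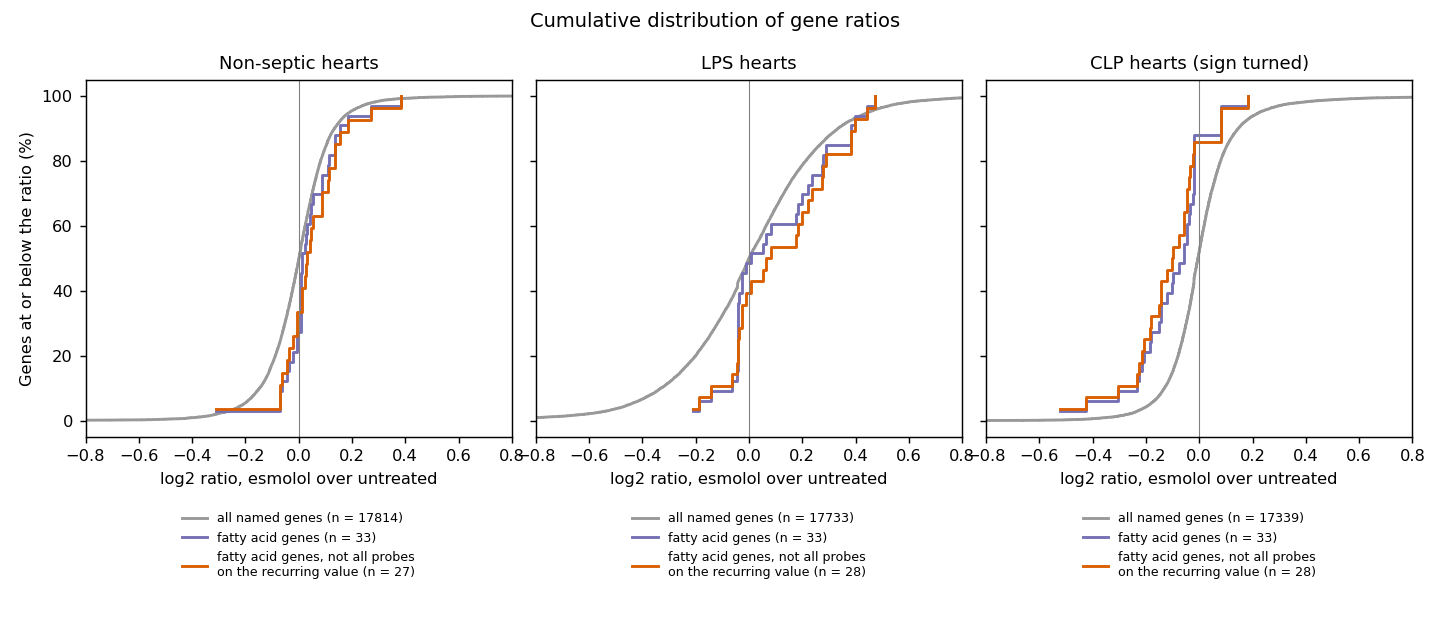
Share of genes (y axis, %) at or below each log2 ratio (x axis) for all named genes, for the 33 fatty acid genes, and for those whose probes were not all on the recurring value. At a ratio of 0 the curve of the 33 genes has reached 87.9% in CLP hearts, where that of all genes has reached 52.1%. In LPS hearts these 2 curves nearly meet there (48.5% and 50%), and in non-septic hearts they stand at 27.3% and 49.5%. The curve of genes not all on the recurring value stands at 85.7% in CLP, 39.3% in LPS and 33.3% in non-septic hearts.

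Genes of lipid uptake could be read in part. Slc27a1, which encodes the fatty acid transport protein FATP1, had 2 probes on 1 side of 0 in every contrast. They lay at 0.17 and 0.11 in non-septic hearts, at 0.56 and 0.39 in LPS hearts and at -0.20 and -0.26 in CLP hearts. Its median was thus higher in the first 2 contrasts (0.14 and 0.47) and lower in CLP hearts (-0.23), where it ranked 505 from the lowest of 17339 genes. Angptl4, whose secreted product inhibits lipoprotein lipase, was higher in both septic contrasts (0.40 in LPS and 0.18 in CLP hearts, 1 probe) and near 0 without sepsis (0.03). In CLP hearts it was the highest gene of the list and the 1 gene above the pooled SD between probes. Its target Lpl, lipoprotein lipase, had 1 of 2 probes off the recurring value in LPS hearts (-0.04, only 0.0013 from that value) and in CLP hearts (-0.07). Fabp3, the fatty acid binding protein of heart muscle, had its probe off the recurring value in CLP hearts alone (-0.04). Cd36, the main fatty acid translocase of the heart, could be read in no contrast.

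In the carnitine shuttle, 3 of 5 genes were at least 1.2-fold higher in LPS hearts, as were 15.4% of all genes, and 1 was below 0, as were 50% of all genes. CPT1 at the outer mitochondrial membrane is the controlled step of the pathway, with Cpt1b encoding the muscle isoform and Cpt1a the liver isoform. The probes of Cpt1b lay at 0.22 and 0.55 in LPS hearts and those of Cpt1a at 0.30 and 0.47, so the isoforms overlapped. Cpt2, the inner membrane enzyme, lay at 0.28 and Slc25a20, the carnitine-acylcarnitine carrier, at 0.20. In CLP hearts the isoforms lay on opposite sides of 0. Cpt1b was lower there (-0.17 and -0.13) and Cpt1a above 0 by less than the pooled SD between probes (0.07 and 0.09), and the 2 ranges did not overlap. In non-septic hearts they also did not overlap, at -0.07 for both probes of Cpt1b and at 0.13 and 0.09 for Cpt1a. Mlycd, which breaks down malonyl-CoA, the inhibitor of CPT1, was near 0 in non-septic (0.05) and LPS hearts (-0.01). In CLP hearts its 1 probe lay at -0.42, rank 79 from the lowest of 17339 genes. Slc25a20 (-0.10) and Cpt2 (-0.04) were closer to 0 in CLP hearts.

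All 7 beta-oxidation enzyme genes with a probe off the recurring value were below 0 in CLP hearts, as were 51.4% of all genes without that value, and their median was -0.14. Acadl, the long-chain acyl-CoA dehydrogenase, lay at -0.18, Acadvl, the very-long-chain enzyme, at -0.14 and Acads, the short-chain enzyme, at -0.10. Decr1, the 2,4-dienoyl-CoA reductase that handles unsaturated chains, had probes at -0.17 and -0.12. Hadh, the short-chain hydroxyacyl-CoA dehydrogenase (-0.04), and the thiolase gene Acaa2 (-0.020) were within the SD between probes. The Acaa2 probe lay 0.0005 from the recurring value and 1 of 2 Hadh probes 0.0022 from it. The count of 7 therefore includes genes whose side of 0 is uncertain. In LPS hearts the dehydrogenases went different ways, with Acadl at 0.22 and Acadvl and Acads at -0.19 and -0.21, each less than the SD between probes of that contrast. In non-septic hearts Acadl (0.09), Acads (0.05), Acadvl (0.02), Decr1 (0.01), Acaa2 (-0.005) and Hadh (-0.06) all lay within it. The medium-chain gene Acadm and the isomerase gene Ech1 could not be read.

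Hadha and Hadhb encode the alpha and beta subunits of the mitochondrial trifunctional protein, which carries out the last steps of the cycle on long chains. The genes are neighbours that start in opposite directions, with 272 bases between the RefSeq starts, so 1 stretch of DNA lies upstream of both, and it is shown because the array reads only 1 of the partners. Hadha had 3 probes. In LPS hearts they lay at 0.28, 0.45 and 0.44, and in CLP hearts at -0.15, -0.31 and -0.22, all on 1 side of 0 in each. In non-septic hearts they spread over both sides, from -0.05 to 0.48 (SD between probes 0.27), so that their median of 0.16 is less than their own spread. Hadhb sat on the recurring value in each contrast, and whether it moved with Hadha cannot be told from these values. The 250 bases before the start of Hadhb (RefSeq, GRCm38.p6, chr5:30155003-30155252, plus strand), with the GC box hexamer GGGCGG in capitals at 90 and 25 bases before the start, read as follows.
Hadha-Hadhb: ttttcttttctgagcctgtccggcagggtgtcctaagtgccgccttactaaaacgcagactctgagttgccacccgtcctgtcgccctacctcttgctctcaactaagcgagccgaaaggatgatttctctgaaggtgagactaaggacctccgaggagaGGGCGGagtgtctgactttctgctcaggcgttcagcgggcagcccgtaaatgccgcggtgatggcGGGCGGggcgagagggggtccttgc

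Genes of electron transfer from the acyl-CoA dehydrogenases to ubiquinone were divided in LPS hearts. Etfdh, the membrane-bound ubiquinone oxidoreductase, was higher at each of its 3 probes (0.47, 0.27 and 0.29). Etfa (-0.03) and Etfb (-0.14), the subunits of the soluble flavoprotein, were on the lower side by less than the SD between probes. In CLP hearts all 3 genes were below 0, as were 52.1% of all genes. The probes of Etfdh lay at -0.21, -0.06 and -0.18, and Etfa (-0.06) and Etfb (-0.08) were within the SD between probes. In non-septic hearts Etfdh (0.04), Etfa (-0.04) and Etfb (-0.07) were all within the SD between probes.

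The genes of fatty acid overflow and fuel choice held the highest gene of the list in non-septic hearts and the lowest in CLP hearts. Acot1 lay at 0.27 in non-septic hearts, at 0.01 in LPS hearts and at -0.52 in CLP hearts, where it ranked 33 from the lowest of 17339 genes. Acot2, its mitochondrial paralog, lay at -0.01, 0.28 and -0.21 in the same order, so that Acot1 was the higher paralog in non-septic hearts and the lower one in both septic contrasts. Each has 1 probe, and whether a probe takes up transcripts of the other paralog was not tested. Ucp3, the muscle uncoupling protein, was lower in CLP hearts (-0.23) and closer to 0 in non-septic (0.09) and LPS hearts (-0.04, 0.0043 from the recurring value). Pdk4 led the list in non-septic hearts (0.38, rank 141 from the highest of 17814). Its value in LPS hearts (-0.04) lay 0.0034 from the recurring value, and in CLP hearts it sat on it. The stretches upstream of the thioesterase paralogs are shown because their ratios differed in each contrast. The genes start 21.6 kb apart on chromosome 12, and the 250 bases before each start were identical at 45.2% of aligned positions, no more than those of Acot1 and the unrelated Hadhb (47.9%). Acot1 (RefSeq, GRCm38.p6, chr12:84009252-84009501, plus strand) holds the GC box on the opposite strand, CCGCCC, 55 bases before its start, in capitals, and Acot2 (chr12:83987611-83987860, plus strand) holds none in this stretch.
Acot1: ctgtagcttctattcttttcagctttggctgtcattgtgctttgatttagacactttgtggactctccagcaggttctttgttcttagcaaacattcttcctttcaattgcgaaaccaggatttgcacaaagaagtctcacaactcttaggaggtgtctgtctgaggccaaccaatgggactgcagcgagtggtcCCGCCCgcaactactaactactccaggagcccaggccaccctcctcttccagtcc
Acot2: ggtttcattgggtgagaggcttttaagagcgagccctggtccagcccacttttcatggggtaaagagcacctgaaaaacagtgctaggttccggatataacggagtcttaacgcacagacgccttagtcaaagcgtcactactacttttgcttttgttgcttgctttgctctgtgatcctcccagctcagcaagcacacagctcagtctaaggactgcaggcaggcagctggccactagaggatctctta

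The PGC-1 coactivators, which dock on PPAR and estrogen-related receptors, lay on opposite sides of 0 in 2 of 3 contrasts. In CLP hearts the median of Ppargc1b (0.08) was within the SD between probes, so its side of 0 there is uncertain. Ppargc1a had probes at 0.18 and 0.20 in non-septic hearts, 0.05 and 0.31 in LPS hearts and -0.34 and -0.27 in CLP hearts. Ppargc1b had probes at -0.32, -0.31 and -0.27 in non-septic hearts, 0.22, 0.50 and 0.24 in LPS hearts and 0.19, 0.01 and 0.08 in CLP hearts. The probe ranges of the coactivators did not overlap in non-septic and CLP hearts and overlapped in LPS hearts. Ppara, the PPAR isotype that drives fatty acid oxidation in heart and liver, lay on the same side of 0 as Ppargc1a in each contrast (0.14, 0.19 and -0.12, 1 probe). In LPS hearts Ppara and the median of Ppargc1a were within the SD between probes. Ppard, the other PPAR of cardiac muscle, was within the SD between probes in each contrast (-0.04, 0.08 and 0.08). Rxra, the shared dimer partner of the PPARs, was higher at both probes in non-septic hearts (0.12 and 0.10), and its probes lay on both sides of 0 in LPS (0.06 and -0.11) and CLP hearts (0.01 and -0.06). Esrra, the estrogen-related receptor alpha, was within the SD between probes in all 3 contrasts (-0.02, -0.06 and -0.06).

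PPARs and estrogen-related receptors bind repeats or extensions of the hexamer AGGTCA, and RefSeq promoter windows, from 250 bases before to 50 after a gene's start, were at hand for 29 of the 35 genes. Searched on both strands, AGGTCA occurred in 6 of the 29 (20.7%), namely Acadm, Acadvl, Cd36, Cpt1a, Rxra and Ucp3, and in 18.1% of 27025 genes with a window, so the list was near the background. The extended element TCAAGGTCA, which contains that hexamer, and the repeat AGGTCANAGGTCA, which contains it at both ends, occurred in 0 of the 29, and in 0.466% and 0.0481% of all genes. The GC box GGGCGG occurred in 20 of 29 (69%) against 38.2% of all genes. Among the 20 are both Hadha and Hadhb, whose windows share 228 bases. All these occurrences are matches of letters and not sites of binding. Whether the hexamer has a part in any ratio was not tested. In CLP hearts Ucp3 (-0.23) and Acadvl (-0.14) were lower by more than the pooled SD between probes, and Cpt1a (0.08) was within it. Rxra (-0.02), with probes on both sides of 0 there, is not shown. For Cpt1a, Ucp3 and Acadvl the 30 bases around AGGTCA or its complement TGACCT, in capitals, are shown. They are 94, 149 and 87 bases before the starts of Cpt1a (RefSeq, GRCm38.p6, chr19:3323195-3323224, plus strand), Ucp3 (chr7:100472830-100472859, plus strand) and Acadvl (chr11:70015498-70015527, minus strand).
Cpt1a: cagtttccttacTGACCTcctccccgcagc
Ucp3: ttaaagagccccAGGTCAcggaagctaaac
Acadvl: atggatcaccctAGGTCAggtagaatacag

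Set side by side, the contrasts, which share no hearts by their titles, differed in how many genes of the list they placed on opposite sides of 0. Between LPS and CLP hearts 13 of 33 genes (39.4%) lay on opposite sides, a smaller share than the 52.1% of all genes. All 13 were above 0 in LPS hearts and below 0 in CLP hearts, a pattern taken by 27.2% of all genes. Between non-septic and CLP hearts 24 genes (72.7%) lay on opposite sides, against 53.5% of all genes. Of these, 22 (66.7% of the list) were above 0 without sepsis, a pattern taken by 28.1% of all genes, and 2 were the reverse. These shares follow in part from how many of the 33 genes lay below 0 in each contrast alone. Those were 9 without sepsis, 16 with LPS and 29 with CLP. Whether the shares exceed what these counts alone would give was not tested. The recurring value is above 0 without sepsis and below 0 in LPS and turned CLP hearts, so genes on it enter these shares with a fixed sign. Without the recurring value the opposite share between LPS and CLP hearts was 13 of 27 (48.1%), near the 52.5% of all genes. Between non-septic and CLP hearts it was 17 of 26 (65.4%), against 53.2% of all genes. Across the 33 genes, which are not independent replicates, non-septic and CLP ratios had a Pearson r of -0.43 (Spearman rho -0.39), LPS and CLP ratios an r of -0.006 (rho -0.19), and non-septic and LPS ratios an r of 0.04 (rho 0.25). Over all genes these r were -0.15, -0.18 and 0.15. These shares rest on the turned CLP sign. With the column as deposited, 20 of 33 genes (60.6%, against 47.9% of all genes) would be split by sign between LPS and CLP, and 9 (27.3%, against 46.4%) between no sepsis and CLP. No difference between contrasts was tested.

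**Figure D3:**
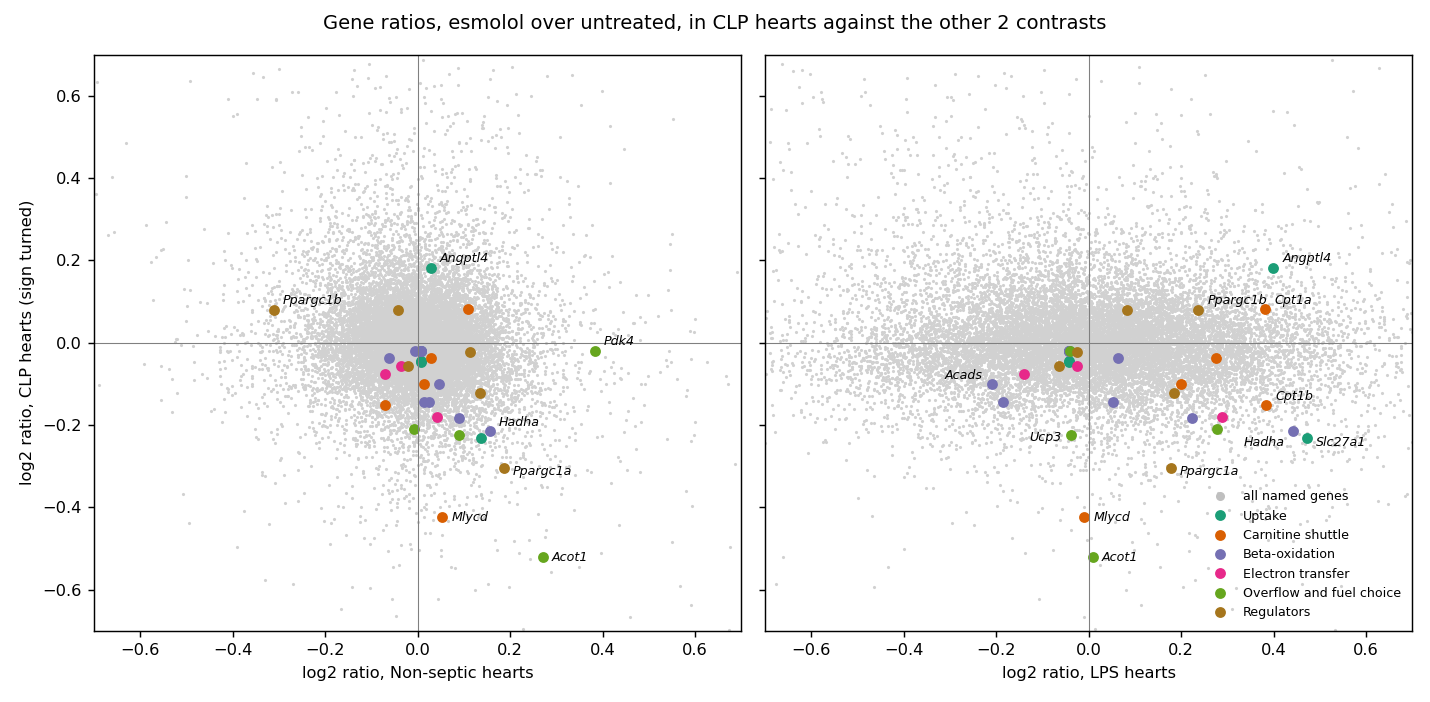
Log2 ratios in CLP hearts (y axis, sign turned) against those in non-septic hearts (left panel, x axis) and LPS hearts (right panel, x axis), with the 33 fatty acid genes coloured by role over all named genes in grey; both axes end at 0.7, beyond which some grey points lie. Most coloured points lie below the horizontal line, and in the right panel 13 lie at the lower right and 0 at the upper left.

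Beyond the list, 76 other genes of lipid handling were looked at, of which 71 are named on the array. In CLP hearts 50 of 69 measured were below 0 (52.1% of all genes were), with a median of -0.05, and 22 were lower and 7 higher by more than the pooled SD between probes, as were 14.6% and 15.7% of all genes. At 1.5-fold 1 gene was lower, Ehhadh, the peroxisomal bifunctional enzyme of fatty acid oxidation (-0.62, rank 14 from the lowest of 17339 genes, 1 probe). Plin5, which ties lipid droplets to mitochondria in oxidative tissue (-0.42), Mgll, monoglyceride lipase (-0.40 ± 0.04, SD between probes), Vldlr, the receptor for triglyceride-rich lipoproteins (-0.39 ± 0.06), and Acacb, which makes the malonyl-CoA that Mlycd removes (-0.24 ± 0.05), were also lower. Acsl5 (0.40) and Acsl4 (0.35 ± 0.04), acyl-CoA synthetases other than the unmeasured Acsl1, were higher, and so was Cidec, a lipid droplet protein of fat cells that also stands in the adipocyte marker list (0.55, rank 165 from the highest). In LPS hearts 70 of these other lipid genes were measured, with a median of 0.04. At least 1.2-fold higher were 12 (17.1%), near the 15.4% of all genes, and 5 (7.14%) were lower by as much, against 14.4%. Of the lists they were sorted into, the 14 lipid droplet genes had the highest median in LPS hearts (0.21). Among those 14, 7 genes were at least 1.2-fold higher. Mgll lay at 0.76 ± 0.07, Plin2, a droplet coat protein, at 0.50, Lipe, hormone-sensitive lipase, at 0.47 ± 0.22, and Hilpda, an inhibitor of triglyceride lipolysis, was lowest (-0.58, 2.27% of all genes being lower). Gpihbp1, which anchors lipoprotein lipase in capillaries, was higher in LPS hearts (0.87) and in non-septic hearts (0.47) and lower in CLP hearts (-0.26), and Vldlr was higher in LPS hearts (0.65 ± 0.18). In non-septic hearts Klf15, a transcription factor of cardiac fuel use, was higher (0.47 ± 0.09), and Acox3 (-0.41), a peroxisomal oxidase, and Slc16a1, the lactate and ketone body transporter (-0.36 ± 0.08), were lower. Over all 71 genes measured there the median was 0.01. Both Acox3 (0.43) and Slc16a1 (0.41 ± 0.04) were higher in LPS hearts.

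Markers of cell types and chambers moved in the same contrasts. Of all genes, 50.5% were above 0 in non-septic hearts, 50% in LPS hearts and 47.9% in CLP hearts. All 7 atrial markers were above 0 in non-septic hearts (0.03 to 0.80, median 0.61) and in CLP hearts (0.22 to 2.69, median 2.11), and all 7 were below 0 in LPS hearts (-1.23 to -0.09, median -0.98). Of 12 capillary endothelial markers, 8 were above 0 in LPS hearts (-0.29 to 1.52, median 0.37), 11 were below 0 in CLP hearts (-1.46 to 0.06, median -0.30), and 7 (58.3%) were above 0 in non-septic hearts (-0.32 to 0.47, median 0.01). These markers include Cd36 of the list and Gpihbp1 and Fabp4 of the other lipid genes, so they are not separate from those genes. Without the recurring value, on which Cd36 sat, 8 of 11 were above 0 in LPS hearts. On that basis 10 of 11 were below 0 in CLP hearts and 6 of 11 (54.5%) above 0 in non-septic hearts. Adipocyte markers were above 0 at 6 of 7 in CLP hearts (-0.23 to 2.40, median 0.44), at 2 of 7 in LPS hearts (-0.52 to 0.24, median -0.18) and at 2 of 6 in non-septic hearts (-0.31 to 0.14, median -0.09). Blood markers had medians of -0.17, -0.61 and -0.003 over 5 genes each. The 8 cardiomyocyte markers ranged from -0.21 to 0.15 without sepsis, from -0.05 to 0.62 with LPS and from -0.15 to -0.01 with CLP. The 0.62 was Tnnt2, with 1 of 2 probes on the recurring value and the other at 1.28. Of the 8 markers, 7, 4 and 4 could be read without the recurring value, with medians of -0.008, 0.03 and -0.05. Ratios hold no levels, and the presence of a cell type cannot be read from them. The part of these shifts in the ratios of the fatty acid genes was not tested, and in pieces of whole heart fewer cells of a type and less RNA per cell cannot be told apart.

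**Figure D4:**
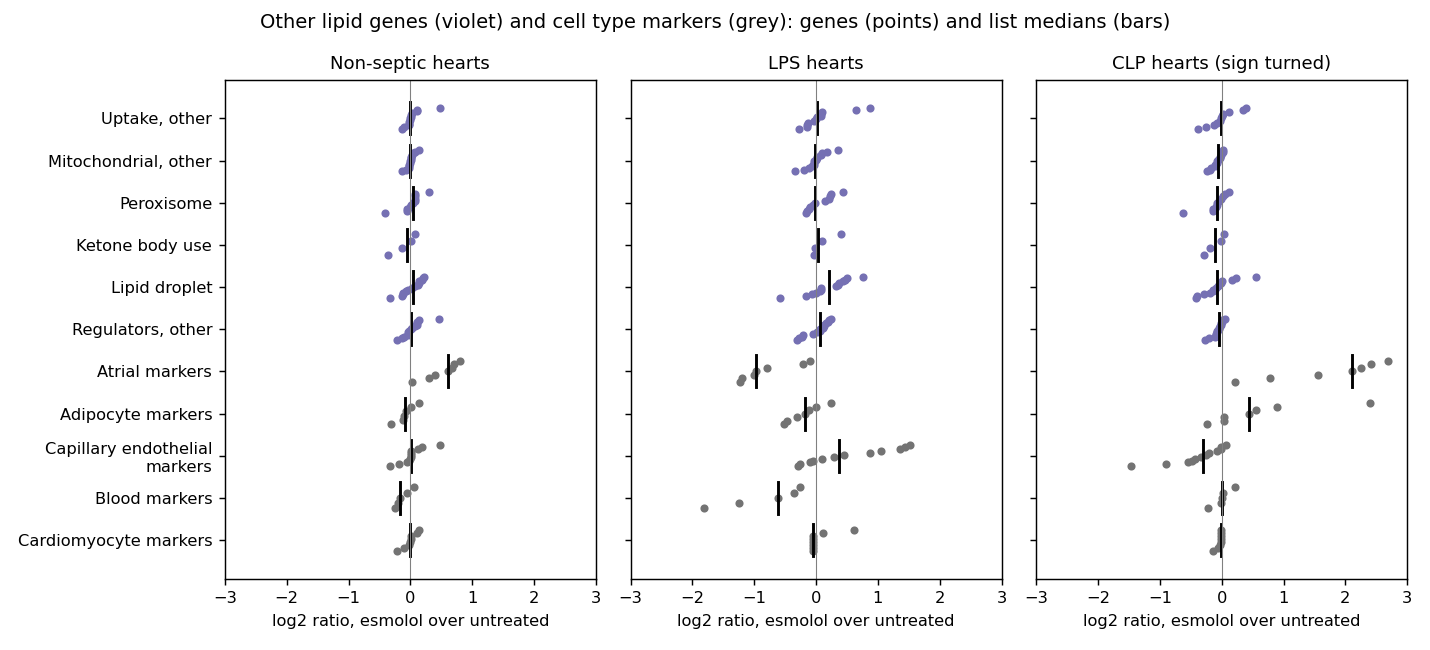
Log2 ratio of esmolol to untreated hearts (x axis) for other genes of lipid handling (violet) and for cell type markers (grey), by list (y axis), in the 3 contrasts; points are genes and bars are list medians. The atrial markers have medians of 0.61, -0.98 and 2.11, farther from 0 than any list of lipid genes, of which the lipid droplet genes in LPS hearts lie farthest (0.21).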

How the data were processed

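Cardiac RNA was compared on 2-colour microarrays with Agilent probe names. The deposited table holds 1 value per probe and contrast, from 4 replicates, per the labels. The deposited values were read as log2 ratios, merged by the authors over dye swaps per the labels, with base 2 as an assumption. How the arrays were scanned and normalized is not stated in the labels. Column medians as deposited were 0.0044, 0.0083 and 0.0072. The CLP column was multiplied by -1 to follow its title. Single arrays, intensities and depth were not analysed here, so precision is limited to the spread between probes.

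Of 41174 probes, 32664 carried 1 gene in the platform annotation, 45 several and 8465 none, and 32524 gene IDs matched RefSeq (GRCm38.p6, used for names and promoter sequences). Probes of a gene were collapsed by the median with pandas 2.3.3 in Python 3.11.15, and promoter stretches were aligned with Biopython 1.88. The 49 probes of the 33 measured genes had 49, 48 and 49 values, of which 8, 7 and 7 sat on the recurring value. Members were counted past 1.5-fold, 1.2-fold and the pooled SD between probes, beside all named genes. There was no statistical test, since each contrast is 1 value. Counting was tested on planted values. Members, lists, thresholds and the rule for named genes (all members, and of other lists those past 1.5-fold or among the 3 highest and 3 lowest of each list per contrast) were chosen with earlier results of these data known. Alternatives were the recurring value left out, mean collapse, probe number and sign, centring, the deposited CLP sign, genes in all 3 contrasts, other log bases and the farthest member left out.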

Additional observations from a re-analysis of the deposited data

Results flagged for a closer look

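Each gene flagged below lay on opposite sides of 0 in 2 contrasts, with all probes on 1 side in each and by more than the pooled SD between probes in each. These differences were not tested, and all of them rest on the turned CLP sign. Between non-septic and CLP hearts this held for 4 of 33 genes, against 6.34% of all genes measured in both. The log2 ratio in non-septic hearts was above that in CLP hearts by 0.79 for Acot1, 0.49 for Ppargc1a, 0.37 for Slc27a1 and 0.26 for Ppara. Between LPS and CLP hearts it held for 5 of 33 genes, against 7.12% of all genes. The LPS ratio was above the CLP ratio by 0.70 for Slc27a1, 0.66 for Hadha, 0.54 for Cpt1b, 0.49 for Acot2 and 0.47 for Etfdh. Between non-septic and LPS hearts it held for 0 of 33 genes, against 3.97% of all genes. Ppargc1b narrowly missed the rule there. All its probes were below 0 without sepsis (median -0.31) and above 0 with LPS, where its median of 0.2367 fell short of the pooled SD of 0.2371.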

How the results depend on the processing

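No paired analysis was possible because each contrast is 1 merged value per probe. Leaving out the recurring value, collapsing by the mean, requiring probes on 1 side of 0, centring and limiting to genes measured in all 3 contrasts left each list median on its side of 0 and each count within 1.5 times. The median in LPS hearts, 0.009, became -0.0003 without its farthest member, so its sign is not settled; it was 0.07 without the recurring value, 0.18 without probes within 0.005 of it and 0.21 over genes with more than 1 probe. With the CLP sign as deposited the CLP median was 0.057, 4 genes were below 0, and 3 were higher and 0 lower by 1.2-fold. With genes of more than 1 probe alone (13, 12 and 13 genes), 0 (non-septic) and 5 (LPS) were 1.2-fold higher, 1 (CLP) was lower, and 4, 4 and 11 were below 0, as fewer genes were counted. Without probes within 0.005 of the recurring value, an alternative chosen after seeing the data, 7 of 24 genes were below 0 in LPS hearts. Counts by fold depend on the log base. Read as natural logarithms, 2 genes were higher by 1.5-fold with LPS and 2 lower with CLP. By 1.2-fold, 3 (non-septic) and 12 (LPS) were then higher, and 2 (LPS) and 8 (CLP) lower. Read as log10, 3, 13 and 1 were 1.5-fold higher and 1, 2 and 9 lower (non-septic, LPS, CLP), while 10, 14 and 4 were 1.2-fold higher, with 3 (LPS) and 15 (CLP) lower. Single genes moved by less than the pooled SD between probes under the 4 settings tried on them.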

Other observations

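Some probes of the list lay within 0.005 of the recurring value without sitting on it. In LPS hearts these were the probes of Acaa2 (0.0005 away), Lpl (0.0013), Pdk4 (0.0034) and Ucp3 (0.0043), 4 of 48 probes with a value, while 1.51% of all probes lay as near. In CLP hearts they were Acaa2 (0.0005) and Hadh (0.0022), and in non-septic hearts Hadh (0.0048), while 4.12% and 3.72% of all probes lay as near. What these values stand for was not tested.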
